A study of Homo sapiens with 66 samples.

Results

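The comparison described here is the loss of MED10, a subunit of the middle module of Mediator, in KBM7 cells. KBM7 is a near-haploid human line from chronic myeloid leukaemia. The libraries were taken by their labels: cells of genotype MED10-dTAG given 500 nM dTAG7 for 6 h against cells of the same genotype given DMSO for 6 h, 3 libraries a side and 6 of the 66 libraries of the series. Wild-type KBM7 given dTAG7 or DMSO, and the lines MED14-dTAG and MED31-dTAG given the same, with 6 libraries each, serve as comparisons. All of these cells grew in the same medium and were treated in triplicate wells, so the p-values measure the spread between wells, which may be technical. Whether the MED10-dTAG line is a single clone is not given in the sources used here.

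Mediator is a large complex that passes signals from DNA-bound transcription factors to RNA polymerase II at promoters. It has a head and a middle module, which contact the polymerase, a tail, which many activators bind, a kinase module that attaches reversibly, and the scaffold subunit MED14, which links head, middle and tail. MED10 lies in the middle module near MED14, and MED31 is another subunit of the same module. In the dTAG system the protein of interest carries a tag that dTAG7 joins to cereblon, a substrate receptor of a ubiquitin ligase, so that the tagged protein is degraded while its mRNA is still made. RNA was measured here, not protein. The sequenced fragments lie at transcript 3' ends. Levels are given as CPM, here spike-in scaled counts: each count is divided by the spike-in total of its library, on a scale where the 3 DMSO libraries of the MED10 line average 1000000 endogenous counts.

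The 3 DMSO libraries of the MED10 line held 2231650, 3136564 and 3409334 endogenous counts, and the 3 dTAG7 libraries held 2621776, 1978583 and 3268950. The log2 ratio of endogenous to spike-in counts was 7.04 ± 0.062 (SD, n = 3) with DMSO and 6.83 ± 0.055 (SD, n = 3) with dTAG7, and all 3 dTAG7 libraries lay below the 3 DMSO libraries. The difference of -0.21 puts polyadenylated RNA per spike-in at 86.2% of the DMSO level. With 3 libraries against 3 the exact two-sided permutation test gave p = 0.1, the smallest it can give. In wild-type cells the same ratio was 7.001 with DMSO and 7.09 with dTAG7. Fewer cells per well and less RNA per cell cannot be told apart in such bulk measurements.

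The transcript of the targeted gene checks the labels only in part, since dTAG7 acts on the protein. MED10 (hg38 chromosome 5, 6371881 to 6378594) stood at 32.0, 31.8 and 29.7 CPM with DMSO and at 21.6, 21.8 and 19.8 CPM with dTAG7. The arms did not overlap, and the change was -0.57 ± 0.18 (log2, SE; edgeR adjusted p = 0.0172). The call did not hold when the libraries were scaled by TMM, which sets the bulk of genes to no change (log2 -0.36, edgeR adjusted p = 0.0695), nor in the edgeR fits without DMSO replicate B (adjusted p = 0.0550) and, separately, without replicate C of dTAG7 (0.0836). With DMSO the MED10 transcript of the tagged line was also lower than the 49.8, 48.5 and 55.4 CPM of wild-type cells, by a log2 difference of -0.72 (edgeR adjusted p = 0.0210). Over all genes, 16 (0.128%) were higher and 24 (0.192%) lower in the tagged line than in wild-type cells before treatment.

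Of 12515 genes tested, 2383 fell (19%) and 339 rose (2.71%) with dTAG7 in the MED10 line at an edgeR adjusted p under 0.05. The fall was at least 2-fold for 458 genes and the rise for 102. The median change over all genes was -0.19 on the log2 scale. TMM scaling moved that median to 0.02 and gave 1279 falls (10.2%) and 1076 rises (8.6%). All of the 1279 TMM falls were also falls on the spike-in scale, and all 339 spike-in rises were also TMM rises. Changes below are on the spike-in scale and are to be read against its median of -0.19. The same dTAG7 treatment in wild-type cells, which carry no tag, gave 0 called genes (0%) under either scaling with edgeR. At an unadjusted p under 0.05 there were 490 such genes on the spike-in scale and 339 under TMM. In the fits that left out each of the 6 MED10-line libraries in turn, 1294 falls and 112 rises were called every time.

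Calls were spread unevenly over expression levels. Genes were ranked by DMSO level and divided into groups of 2503. In the lowest group 2.24% fell and 3.64% rose, while in the highest group 35.1% fell and 1.20% rose. Under TMM the order of the rises turned, with 1.36% falling and 6.31% rising in the lowest group and 19.5% falling and 7.95% rising in the highest. More counts also give more precision, so these shares describe calls rather than sizes: the median change was 0.00 in the lowest group and -0.25 in the highest. The same DMSO libraries ranked the genes and form the baseline of each change. A gene low there by chance would tend to rise, so these shares and medians are not independent of the grouping. Of 11043 protein-coding genes 20.7% fell, of 308 lincRNA genes 8.44% fell and of 381 antisense genes 6.30% fell, at median DMSO levels of 32.0, 3.83 and 3.45 CPM. The shares that rose were 2.60, 5.84 and 4.72% in the same order, lowest for protein-coding genes. That order did not hold for every type, as 0.917% of 218 processed pseudogenes rose. Under TMM 8.95, 7.47 and 8.92% of protein-coding, lincRNA and antisense genes rose, and 11.1, 4.87 and 3.41% fell. With dTAG7 the 9793 genes that were not called stood together at 92.1% of their summed DMSO level.

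**Figure D1:**
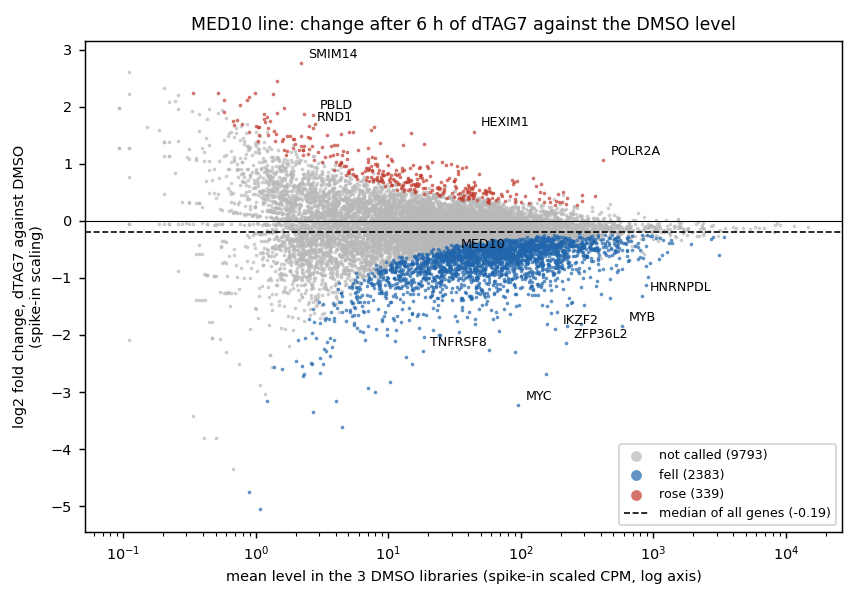
Each point is 1 of 12515 genes. The x axis is the mean level in the 3 DMSO libraries of the MED10 line (spike-in scaled CPM, log axis, genes at 0 left out) and the y axis the log2 fold change with dTAG7; blue genes fell, red genes rose and grey genes were not called. The 2383 falls extend to high levels on the right, and the 339 rises are fewer there on this scale. Under TMM 6.31, 8.71, 9.71, 10.3 and 7.95% rose in the groups from the lowest to the highest DMSO level. The dashed median lies at -0.19.

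The 12 largest falls among genes with a mean of at least 5 CPM over both arms were MYC, FJX1, AL034397.3, GNB1L, RGS16, AC244502.1, TNFRSF8, PLD6, ZFP36L2, NFE2L3, EEF2KMT and KAZN. MYC, the growth-promoting transcription factor, stood at 88.4, 110.3 and 87.4 CPM with DMSO and at 9.33, 10.0 and 10.8 CPM with dTAG7, a log2 change of -3.24 ± 0.35 (SE; edgeR adjusted p = 8.85e-11). TNFRSF8, which encodes the receptor CD30, went from 18.5, 16.9 and 19.3 CPM to 2.57, 5.46 and 3.61 CPM (log2 -2.28 ± 0.28, edgeR adjusted p = 3.34e-09). In both genes every dTAG7 library lay far below every DMSO library.

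RGS16, a brake on G-protein signalling, fell from 10.8, 14.6 and 15.1 CPM to 1.93, 2.73 and 3.09 CPM (log2 -2.38 ± 0.40). ZFP36L2, an RNA-binding protein that speeds the decay of AU-rich mRNAs, fell from 209.8, 237 and 209.7 CPM to 53.4, 51.4 and 44.8 CPM (log2 -2.14 ± 0.22). PLD6, a phospholipase of the mitochondrial surface, fell from 58.2, 62.6 and 52.9 CPM to 13.2, 10.5 and 12.1 CPM (log2 -2.26 ± 0.19). The 3 libraries of each arm lay close together in these genes, and all 12 were called in each of the 6 fits that left out a library. AL034397.3 is an antisense gene on the X chromosome and AC244502.1 a processed transcript on chromosome 14. Whether the counting used strand is not given in the sources used here, so that reads of an antisense gene and of its partner may not be told apart.

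The 12 largest rises by the same rule were SMIM14, AC079322.1, PBLD, SGCB, RND1, AC025181.2, KLRA1P, AC011503.2, HEXIM1, KHDC1, ZMAT1 and SERTAD1. SMIM14, which encodes a small membrane protein, rose from 1.80, 1.99 and 2.80 CPM to 14.8, 18.2 and 14.4 CPM (log2 2.77 ± 0.32, edgeR adjusted p = 1.24e-09). SERTAD1, a regulator of CDK4 and E2F activity, rose from 14.9, 12.6 and 16.8 CPM to 45.7, 42.3 and 41.2 CPM (log2 1.54 ± 0.20). RND1 rose from 2.71, 2.65 and 2.24 CPM to 7.72, 10.5 and 6.44 CPM (log2 1.66 ± 0.49). In all 12 the lowest dTAG7 library lay above the highest DMSO library, which the rule required, and all 12 were called in each of the 6 fits without a library. The lincRNA genes AC079322.1 and AC025181.2 and the pseudogene KLRA1P were among them.

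**Figure D2:**
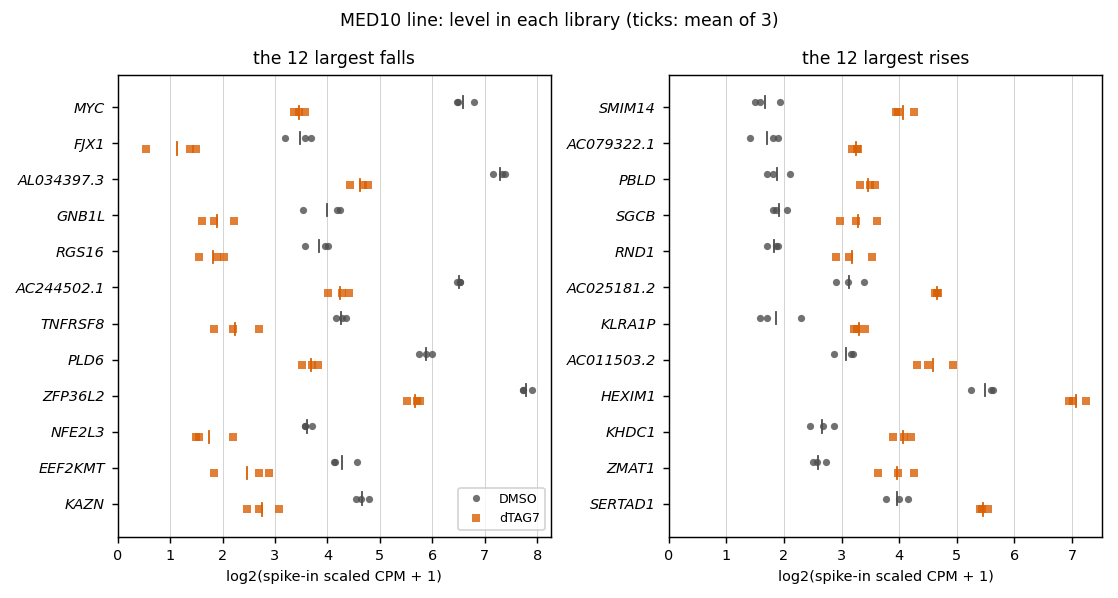
Levels in each of the 6 libraries of the MED10 line on a log2(CPM + 1) scale, grey circles for DMSO and orange squares for dTAG7 with a tick at the mean of 3, for the 12 largest falls (left) and the 12 largest rises (right). The arms do not overlap in any of these genes, as the rule for choosing them required. SMIM14 lay between 1.80 and 2.80 CPM with DMSO and between 14.4 and 18.2 CPM with dTAG7.

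HEXIM1 holds the kinase P-TEFb (CDK9 with a cyclin T) inactive in the 7SK particle. It stood at 37.0, 47.4 and 48.7 CPM with DMSO and at 128, 149.7 and 122 CPM with dTAG7 (log2 1.57 ± 0.17, edgeR adjusted p = 7.44e-11), with no overlap between the arms. Its promoter is shown because HEXIM1 had the largest rise in the list of P-TEFb genes described next. The plan had been to take promoters in order of the largest rises, beginning with SMIM14. The window runs from 250 bases before to 50 bases after the RefSeq start on the plus strand, at chr17:45148225-45148524 of GRCh38.p14. Capitals mark each match to the motif CCAAT on either strand, to the E-box CACGTG or to the TATA box, TATAAA.

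HEXIM1: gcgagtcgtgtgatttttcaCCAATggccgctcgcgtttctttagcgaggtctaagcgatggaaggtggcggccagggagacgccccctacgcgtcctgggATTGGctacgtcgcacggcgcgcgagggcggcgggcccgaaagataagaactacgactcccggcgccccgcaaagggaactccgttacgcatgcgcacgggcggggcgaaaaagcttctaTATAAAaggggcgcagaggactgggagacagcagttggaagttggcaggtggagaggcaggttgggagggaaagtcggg

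This window holds CCAAT 2 times, in both orientations, and TATAAA at position -29 from the start. The windows of SMIM14, PBLD and SGCB, which rose more, hold neither motif. Those of ZMAT1 and SERTAD1, which rose less, hold CCAAT 1 time each, and that of KHDC1 holds neither motif. Among the 9475 tested genes with a promoter entry, 37.3% of windows hold CCAAT and 5.32% hold TATAAA on either strand. The 251 genes with an entry that rose had them in 44.6 and 6.77%, and the 1938 that fell in 34.5 and 5.31%. A match describes letters in a window, not a bound site.

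Of 15 tested genes of P-TEFb, the 7SK particle and the super elongation complex, 2 rose and 2 fell, beside 2.71% and 19% of all genes. Under TMM 3 rose and 2 fell, beside 8.6 and 10.2% of all genes. Beside HEXIM1, the elongation factor ELL2 rose from 2.26, 2.32 and 2.24 CPM to 7.08, 4.55 and 4.64 CPM (log2 1.25 ± 0.44, edgeR adjusted p = 0.0335), a call that held in 2 of the 6 fits without a library and under TMM. LARP7, the protein that stabilises 7SK RNA, fell from 234, 224 and 219 CPM to 149, 151 and 138 CPM (log2 -0.63 ± 0.10, edgeR adjusted p = 7.90e-07). MLLT1, a reader protein of the super elongation complex, fell by 0.64 on the log2 scale. CDK9 itself and the cyclins CCNT1 and CCNT2 were not called, at log2 -0.19 ± 0.42, 0.23 ± 0.12 and -0.17 ± 0.20; CCNT1 was called as higher under TMM.

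Of 11 RNA polymerase II subunits only POLR2A, the catalytic subunit, was called. It rose from 413, 425 and 416 CPM to 855, 937 and 828 CPM (log2 1.06 ± 0.14, edgeR adjusted p = 3.05e-08), while the other 10 lay between -0.43 (POLR2H) and 0.03 (POLR2L). Of 13 BET proteins and acetyltransferases with their partners, 2 rose and 2 fell, beside 2.71% and 19% of all genes. With TMM 6 rose and 2 fell, beside 8.6 and 10.2% of all genes. BRD2, a reader of acetylated histones, rose from 31.1, 32.5 and 35.3 CPM to 65.7, 59.1 and 67.2 CPM (log2 0.96 ± 0.15), whereas its relative BRD3 was not called (log2 -0.13 ± 0.11).

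NCOA3, a nuclear receptor coactivator, rose (log2 0.48 ± 0.16, edgeR adjusted p = 0.0187) and was called in 3 of the 6 fits without a library. The acetyltransferases KAT5 (log2 -1.19 ± 0.14) and KAT2A (log2 -0.75 ± 0.18) fell. Of 35 genes for pausing, elongation and termination, 12 fell and 0 rose, among them the Integrator subunit INTS13 (log2 -1.05 ± 0.16), the Paf1 complex subunit LEO1 (log2 -0.71 ± 0.14) and the pausing factor NELFA (log2 -0.62 ± 0.16). With TMM scaling 4 of these 35 fell and 2 rose. For this list and the next, 19% of all genes fell and 2.71% rose, and 10.2 and 8.6% under TMM. Of 30 genes of the general transcription machinery, 2 fell (GTF2H1, log2 -0.86 ± 0.17, and TAF4B, -0.72 ± 0.24) and TAF3 rose (log2 0.37 ± 0.11); with TMM scaling 1 fell and 5 rose.

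Of 33 tested genes of Mediator itself, 6 fell and 1 rose, shares near the 19% and 2.71% of all genes, with a median of -0.12 against -0.19 over all genes. With TMM scaling 2 fell and 2 rose. In the middle module MED10 and MED21 fell. MED21 went from 14.4, 18.5 and 19.0 CPM to 12.6, 9.10 and 7.73 CPM (log2 -0.85 ± 0.26, edgeR adjusted p = 0.0133) and was called in 3 of the 6 fits without a library.

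In the head module MED11 fell from 5.52 ± 1.74 CPM (SD, n = 3) to 0.644, 1.36 and 2.58 CPM (log2 -1.80 ± 0.46, edgeR adjusted p = 0.00243) and was called in all 6. The calls of the other head subunits MED8, MED17 and MED22 (log2 -0.40, -0.43 and -0.71) were lost under TMM. CDK19, the paralogue of the Mediator kinase CDK8, was the gene of the complex that rose. It stood at 44.7, 44.7 and 44.8 CPM with DMSO and at 65.98, 80.5 and 70.6 CPM with dTAG7 (log2 0.69 ± 0.14, edgeR adjusted p = 9.98e-05), and the DMSO libraries were nearly identical.

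CDK8 was not called (log2 -0.48 ± 0.27), nor was CCNC, the cyclin of both kinases (log2 -0.28 ± 0.13). None of the Mediator genes tagged elsewhere in the series (MED1, MED6, MED12, MED14, MED26, MED28 and MED31) was called. Their changes ran from -0.29 for MED12 to 0.10 for MED14, and under TMM MED6, MED14, MED26, MED28 and MED31 lay above 0.

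Blood transcription factors, which set the identity of progenitor cells, fell in 22 of 37 tested genes and rose in 0, with a median of -0.70. With TMM scaling 16 of the 37 fell and 0 rose. The shares over all genes were 19% falling and 2.71% rising, and 10.2 and 8.6% under TMM. IKZF2, an Ikaros-family factor, fell from 169, 204 and 175 CPM to 49.2, 52.8 and 45.8 CPM (log2 -1.90 ± 0.17, edgeR adjusted p = 4.65e-13). BCL11A, a repressor of fetal globin, fell from 166, 181 and 164 CPM to 58.6, 52.8 and 55.4 CPM (log2 -1.61 ± 0.13). MYB, a driver of progenitor proliferation, fell by 1.85 on the log2 scale. ETV6 (log2 -1.44 ± 0.14), SATB1 (-1.41 ± 0.12), ERG (-1.33 ± 0.21) and LYL1 (-1.31 ± 0.14) followed, and all of these were called in each of the 6 fits without a library.

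Other factors of the list did not pass the test. GATA2, a regulator of stem and progenitor cells, stood at 53.7, 66.9 and 58.0 CPM with DMSO and at 52.1, 55.1 and 51.8 CPM with dTAG7, with overlapping arms (log2 -0.18 ± 0.16; 0.03 under TMM). HHEX (log2 -0.01 ± 0.13), MEIS1 (-0.05 ± 0.19) and MYBL2 (-0.06 ± 0.10) were not called either, and were above 0 under TMM. GATA1 was at 0.451 to 1.12 CPM with DMSO and 0 to 1.29 CPM with dTAG7, where a difference was not detectable at this depth. By role, 12 of 20 progenitor factors, 2 of 5 erythroid, 5 of 8 myeloid and 3 of 4 lymphoid factors fell. In the MAX network, through which MYC acts, 5 of 12 genes fell and 0 rose, beside 19% and 2.71% of all genes. The falls were MYC, MXI1 (log2 -1.29 ± 0.19), MNT (-1.01 ± 0.22), MAX (-0.92 ± 0.21) and MGA (-0.80 ± 0.13).

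Surface proteins and ligands of progenitors fell in 9 of 13 tested genes under both scalings, with a median of -0.65. ANGPT1, a ligand of the receptor TIE2, fell from 214, 240.4 and 210.3 CPM to 59.2, 57.8 and 67.2 CPM (log2 -1.85 ± 0.13). The integrin chain ITGA4 fell by 1.44 on the log2 scale, CD34, the stem cell sialomucin, by 0.93, and the receptor KIT by 0.65. The adhesion receptor CD44 fell as well (log2 -0.80 ± 0.13) and was already lower than in wild-type cells with DMSO (log2 -0.71). CD33 was not called (log2 -0.37 ± 0.19). Signalling genes of BCR-ABL and STAT5 and their targets fell in 7 of 28, a share near the 19% of all genes, among them STAT5A (log2 -0.78 ± 0.11), CISH (-0.87 ± 0.15) and CCND2 (-0.96 ± 0.20), and 5 fell and 2 rose with TMM scaling, where 10.2% of all genes fell and 8.6% rose.

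A list of 14 markers of chronic myeloid leukaemia and myeloid progenitors, all in the count table, was used to check the labelled cell type. Its summed level was 1564 to 1691 CPM in the DMSO libraries and 857 to 860 CPM in the dTAG7 libraries. Of the 14 markers 9 fell, beside 19% of all genes, and under TMM 7 fell, beside 10.2%. Markers of other cell types were also measured. The 2 erythroid markers analysed of 9 listed summed to 0 to 0.331 CPM, and the 2 monocyte and granulocyte markers of 8 to 5.32 to 9.01 CPM, mostly LYZ. The 5 T and NK markers of 8 summed to 30.7 to 34.7 CPM, led by CD4, the 5 B markers to 53.1 to 76.5 CPM, mostly PAX5, and the 2 fibroblast and epithelial markers of 7 to 26.1 to 31.8 CPM, mostly KRT18. PAX5 reached 57.1 CPM with DMSO and 43.8 CPM with dTAG7, above the 32.0 CPM median of protein-coding genes, and KRT18 and CD4 reached 23.4 and 20.9 CPM. No tested gene of these 5 lists was called, and their part in the changes of other genes was not tested.

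Genes for ribosome assembly, which build the subunits in the nucleolus, fell in 84 of 94 and rose in 0, with a median of -0.80. With TMM scaling 73 of 94 fell. Over all genes 19% fell on the spike-in scale and 10.2% under TMM, and the spike-in median was -0.19. The counts were 37 of 43 for small-subunit factors and 47 of 51 for large-subunit factors, with medians of -0.80 and -0.79. NIP7, a factor of large-subunit maturation, fell from 41.5, 55.0 and 39.5 CPM to 14.2, 14.1 and 13.1 CPM (log2 -1.72 ± 0.23). RPF2, which helps to bring the 5S particle into the large subunit, fell from 166, 155 and 151 CPM to 57.0, 56.9 and 53.8 CPM (log2 -1.49 ± 0.12). WDR3, a small-subunit factor, fell from 155, 153 and 125 CPM to 54.1, 52.3 and 49.7 CPM (log2 -1.47 ± 0.13). In these 3 genes the highest dTAG7 library was below the lowest DMSO library, as arms without overlap were found in 5196 of the 12515 tested genes and in 2321 of the 2383 falls. Of the abundant nucleolar proteins NPM1 was at -0.30 ± 0.09, a call that TMM removed, and FBL was not called (-0.24 ± 0.14). The summed level of the 94 genes with dTAG7 was 62.3% of that with DMSO.

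CACGTG, the E-box that MYC with MAX is known to bind, was present in the promoter windows of 28 of 79 tested ribosome assembly genes with an entry (35.4%). Of the members of that list that fell, 25 of 69 held it (36.2%), a share close to that of the whole list. Over all genes CACGTG was in 14.8% of windows of genes that fell and 19.9% of those that fell at least 2-fold. It was in 4.38% of those that rose and 10.5% of all 9475. In other lists the share was 6.67% of 30 blood transcription factors and 8.33% of 12 RNA polymerase I genes. It was 21.1% of 19 immediate-early genes and 25.9% of 27 genes of nucleotide and polyamine synthesis. CACGTG reads the same on both strands and does not overlap with a CCAAT or TATAAA match in the windows shown. The windows of DDX21, DKC1 and WDR3, ribosome assembly falls with lower edgeR p-values than WDR43, hold no CACGTG. Nor do those of GNL3 and NOP16, while that of NOP14 does. WDR43 and MRTO4, ribosome assembly genes chosen after their values were seen as falls with a match near the start, are shown for comparison with HEXIM1. They lie on the plus strand at chr2:28894417-28894716 and chr1:19251555-19251854 of GRCh38.p14, with the same marks.

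WDR43: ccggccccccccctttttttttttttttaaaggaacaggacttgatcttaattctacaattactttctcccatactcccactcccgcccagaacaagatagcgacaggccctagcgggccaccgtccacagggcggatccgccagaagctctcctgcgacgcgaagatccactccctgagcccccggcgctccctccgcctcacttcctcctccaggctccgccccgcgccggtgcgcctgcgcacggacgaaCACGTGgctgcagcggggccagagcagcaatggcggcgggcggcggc
MRTO4: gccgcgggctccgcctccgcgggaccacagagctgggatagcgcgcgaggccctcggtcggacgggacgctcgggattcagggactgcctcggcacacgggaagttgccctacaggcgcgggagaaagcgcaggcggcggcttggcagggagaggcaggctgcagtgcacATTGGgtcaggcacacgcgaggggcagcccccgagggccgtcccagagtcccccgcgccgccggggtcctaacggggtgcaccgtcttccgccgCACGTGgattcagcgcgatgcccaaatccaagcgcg

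The match begins at base 4 after the start in WDR43 and at base 15 in MRTO4. WDR43, a small-subunit factor, fell from 425, 408 and 379 CPM to 142, 177 and 179 CPM (log2 -1.28 ± 0.12). MRTO4, a factor of the large subunit, fell from 158, 159 and 136 CPM to 71.8, 74.2 and 71.1 CPM (log2 -1.06 ± 0.11). The arms did not overlap in either gene. Of the other motifs searched on both strands, GGGCGG was in 71.2% of all windows and in 69.6% of those of ribosome assembly genes, GGAAGT in 28.7 and 48.1%, GATAAG in 3.62 and 3.80% and TGACGTCA in 3.35 and 6.33%.

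RNA polymerase I genes, which transcribe ribosomal RNA, fell in 10 of 13 and rose in 0 (median -0.76), with 9 falls under TMM. The subunit gene CD3EAP fell from 162, 166 and 148 CPM to 49.6, 40.5 and 45.1 CPM (log2 -1.81 ± 0.13), and TAF1D, of the factor that recruits the polymerase, fell from 466, 476 and 476 CPM to 239, 240.2 and 221 CPM (log2 -1.02 ± 0.13). Host genes of small nucleolar RNAs fell in 13 of 19 (median -0.69, 10 falls under TMM), among them SNHG3 (log2 -1.40 ± 0.20) and SNHG1 (-0.85 ± 0.13). Of the proteins of the ribosome itself, 7 of 79 cytosolic genes fell and 0 rose, beside 19% and 2.71% of all genes. Their median of -0.16 is above that of all genes. With TMM 4 of the 79 fell: RPL36A, RPS3A, RPSA and RPL7. Pseudogenes of ribosomal protein genes could take or add reads throughout this list, which was not tested.

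Mitochondrial ribosomal protein genes fell in 40 of 74 and rose in 0, with a median of -0.44, and in 19 under TMM. MRPS26 fell from 233, 209 and 182 CPM to 89.5, 84.2 and 99.2 CPM (log2 -1.19 ± 0.15), and MRPL54 and MRPL27 fell by 0.96 and 0.95 on the log2 scale. Genes of the respiratory chain had 3 falls and 0 rises in 69 (median -0.12), and under TMM 0 falls and 3 rises. None of 30 tested genes on the mitochondrial genome was called, with a median of -0.10. The share of mitochondrial ribosomal protein genes that fell was thus above the 19% of all genes, and that of respiratory chain genes below it.

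Nucleotide and polyamine synthesis fell in 19 of 29 and rose in 0 (median -0.53), with 16 falls under TMM. PFAS, an enzyme of purine synthesis, fell from 59.5, 60.3 and 52.6 CPM to 23.8, 29.1 and 29.4 CPM (log2 -1.06 ± 0.14), CTPS1, which makes CTP, fell from 86.6, 89.1 and 75.6 CPM to 50.9, 54.1 and 43.5 CPM (log2 -0.77 ± 0.13), and ODC1, the first enzyme of polyamine synthesis, by 0.52 on the log2 scale. Cytosolic aminoacyl-tRNA synthetases fell in 14 of 20 (median -0.42, 7 falls under TMM) and translation initiation factors in 18 of 37 (median -0.38, 11 under TMM), among them the phenylalanyl-tRNA synthetase subunit FARSA (log2 -0.79 ± 0.12) and the initiation factor subunit EIF3A (-0.65 ± 0.08). In glycolysis 6 of 21 fell and 1 rose, beside 19% and 2.71% of all genes. Under TMM 3 fell and 1 rose, beside 10.2 and 8.6% of all genes. The hexokinase HK2 fell from 35.2, 38.4 and 35.3 CPM to 12.2, 10.9 and 13.1 CPM (log2 -1.57 ± 0.27), whereas the glucose transporter SLC2A3 rose from 19.4, 34.4 and 27.4 CPM to 50.5, 56.4 and 56.1 CPM (log2 0.98 ± 0.16).

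Chaperones fell in 20 of 32 and rose in 2, with a median of -0.38, and TMM kept 10 falls and 2 rises. Shares over all genes were 19% falling and 2.71% rising, and 10.2 and 8.6% under TMM. HSPA8, the constitutive HSP70, fell from 452, 313 and 348 CPM to 186, 182 and 135 CPM (log2 -1.15 ± 0.16), and the HSP90 genes HSP90AA1 and HSP90AB1 fell by 0.29 each, calls that TMM removed. DNAJB4 and DNAJB6, cochaperones of HSP70, rose (log2 0.68 ± 0.23 and 0.39 ± 0.14), called in 1 and 2 of the 6 fits without a library. The unfolded protein and integrated stress response list had 13 falls and 1 rise in 29 genes, and 7 and 1 under TMM. XBP1, its transcription factor of the endoplasmic reticulum, fell from 458, 502 and 442 CPM to 182, 189 and 177 CPM (log2 -1.36 ± 0.18), HSPA5, the chaperone BiP, by 0.83 and ATF4 by 0.46, of which the ATF4 call was lost under TMM. The member that rose was SESN2, a stress-induced regulator of mTORC1 (log2 0.53 ± 0.14).

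Splicing regulators fell in 11 of 34 and rose in 0, and under TMM 9 fell and 4 rose. Among all genes 19% fell and 2.71% rose, and 10.2 and 8.6% under TMM. HNRNPDL, an RNA-binding protein, fell from 804, 850.5 and 811 CPM to 335, 323 and 331 CPM (log2 -1.32 ± 0.11), and the SR proteins SRSF7 and SRSF3 fell by 0.86 and 0.78. TFRC, the transferrin receptor, fell from 192, 199 and 184 CPM to 103, 116 and 91.9 CPM (log2 -0.89 ± 0.15). It belongs to a list of haem and globin genes in which 5 of 19 fell and 0 rose, with a median of -0.10. That share of falls is near the 19% of all genes, and under TMM 4 fell and 0 rose. CRBN, the cereblon that dTAG7 recruits, fell from 54.1, 60.6 and 51.8 CPM to 35.1, 31.4 and 41.2 CPM (log2 -0.61 ± 0.15, edgeR adjusted p = 0.00190); in wild-type cells given dTAG7 it was at 0.04 ± 0.15, and the difference between the lines was -0.65 ± 0.21 (adjusted p = 0.0272), a call that was lost under TMM (-0.34, adjusted p = 0.334).

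Immediate-early genes respond quickly and transiently to stimuli. Of 27 tested, 6 rose and 4 fell, with a median of 0.29, and 13 rose and 3 fell under TMM. Beside these stand 2.71% rising and 19% falling over all genes, and 8.6 and 10.2% under TMM. JUN, an AP-1 subunit, rose from 9.02, 8.28 and 5.04 CPM to 13.2, 16.4 and 13.4 CPM (log2 0.97 ± 0.27), ZFP36L1, a relative of ZFP36L2, rose from 32.5, 44.7 and 31.1 CPM to 64.4, 77.8 and 65.7 CPM (log2 0.93 ± 0.17), and PPP1R15A, a phosphatase subunit of the stress response, rose from 15.3, 16.6 and 21.8 CPM to 30.6, 32.8 and 29.4 CPM (log2 0.76 ± 0.18). The phosphatase DUSP2 and the pseudokinase TRIB1 fell instead, by 1.40 and 1.33. ZFP36L1 and ZFP36L2, which encode related decay factors, thus moved in opposite directions, and both calls held in each of the 6 fits without a library and under TMM.

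Targets of p53 rose in 3 of 24 and fell in 2, and under TMM 9 rose and 2 fell. For this list and the next, the shares over all genes were 2.71% rising and 19% falling. Under TMM they were 8.6 and 10.2%. BTG2, an antiproliferative gene also in the immediate-early list, rose from 2.26, 0.994 and 1.12 CPM to 9.33, 9.55 and 4.89 CPM (log2 2.45 ± 0.51), and the cell cycle inhibitor CDKN1A rose from 11.3, 9.27 and 9.24 CPM to 21.6, 14.6 and 21.1 CPM (log2 0.98 ± 0.23). The nuclease gene AEN fell by 1.14. In the interferon list 3 of 21 rose and 0 fell: STAT2 (log2 0.74 ± 0.19), SLFN5 (1.73 ± 0.53) and IFIT2 (1.16 ± 0.43), the last of which was called in 1 of the 6 fits without a library and stood lower than in wild-type cells with DMSO (log2 -1.88).

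Cell cycle genes were called in both directions. Of 41 S-phase genes 7 fell and 3 rose, with 1 fall and 8 rises under TMM, and of 33 G2 and M genes 3 fell and 2 rose, with 1 and 12 under TMM, so that the split of calls turned with the scaling. Over all genes 19% fell and 2.71% rose, and 10.2 and 8.6% under TMM. CCNE2, the cyclin of S-phase entry, rose from 18.5, 21.5 and 18.5 CPM to 34.1, 42.3 and 38.4 CPM (log2 0.96 ± 0.19), E2F2 rose from 46.9, 44.7 and 43.1 CPM to 67.6, 81.4 and 61.3 CPM (log2 0.63 ± 0.15), and HMMR, a spindle protein, rose from 150.2, 131 and 142 CPM to 228, 225 and 209 CPM (log2 0.65 ± 0.11). CDK6, a kinase of G1, fell from 653, 641 and 594 CPM to 388, 455 and 390.2 CPM (log2 -0.61 ± 0.10). BCL2, the survival factor, fell from 71.3, 62.3 and 57.1 CPM to 34.4, 32.3 and 35.0 CPM (log2 -0.89 ± 0.16). Of 366 genes with a zinc finger symbol 51 fell and 12 rose, beside 19% and 2.71% of all genes, and 22 fell and 26 rose under TMM, beside 10.2 and 8.6%. ZNF703, a corepressor, rose from 8.12, 14.9 and 15.4 CPM to 36.7, 32.8 and 30.1 CPM (log2 1.33 ± 0.18).

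**Figure D3:**
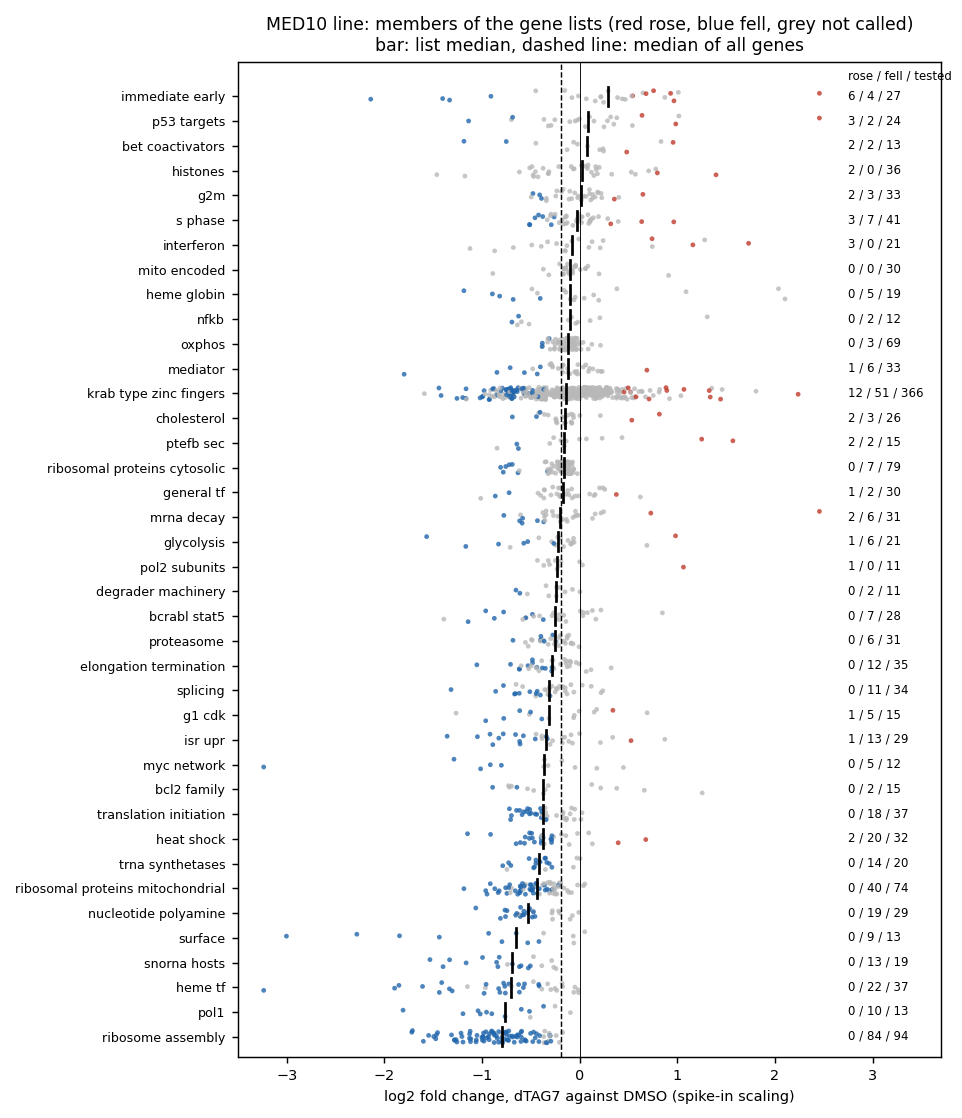
Each point is 1 tested member of a gene list, at its log2 fold change with dTAG7 in the MED10 line (x axis, spike-in scaling), red where it rose, blue where it fell and grey where it was not called; bars are list medians, and the numbers give genes that rose, fell and were tested. Ribosome assembly and RNA polymerase I lie lowest, with medians of -0.80 and -0.76, and immediate-early genes highest, at 0.29. The dashed line is the median of all genes, -0.19.

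The effect in the MED10 line was next compared with that of the same dose in wild-type cells, gene by gene. The difference was called for 1835 genes, 1766 lower in the MED10 line (14.1%) and 69 higher (0.551%), with a median of -0.29; TMM gave 619 lower (4.95%) and 359 higher (2.87%). All of the 12 largest falls and 9 of the 12 largest rises differed from wild-type cells, the exceptions being AC079322.1, SGCB and RND1. These 24 genes were chosen for their size in the same MED10 libraries, which favours such differences, so the counts are descriptions only. In wild-type cells the 24 genes lay between -0.37 (PBLD) and 0.62 (SGCB). MYB, for example, was at 0.09 ± 0.11 in wild-type cells, a difference of -1.94 ± 0.15 (edgeR adjusted p = 1.07e-14).

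The MED14 line, which loses the scaffold subunit, shared no library with the MED10 line. The effect differed for 3749 genes, of which 3739 were higher in the MED10 line (29.9%) and 10 lower (0.0799%), with a median difference of 0.50. Under TMM, which removes that shift, 40 genes were higher (0.32%) and 8 lower (0.0639%). Of the falls in the MED10 line 97.4% also fell in the MED14 line, where 63.3% of all genes did (16.7% under TMM), and these shared genes were 29.3% of the falls there. Under TMM 82.5% of the falls were shared, 50.5% of the falls there. Of the rises, 32.7% also rose in the MED14 line, where 1.7% of all genes did (14.2% under TMM), and these were 52.1% of the rises there. Under TMM 71.1% of the rises were shared, 42.9% of the rises there. Across 9997 genes with at least 5 CPM the 2 profiles had a Pearson correlation of 0.783, which is a description over genes and not over replicates.

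The 24 genes were chosen for the size of their change in the MED10 line, so that their medians in other lines are descriptions only. For the 12 largest falls the medians were -2.29 in the MED10 line and -3.07 in the MED14 line, and the difference was called for 5: AL034397.3, AC244502.1, TNFRSF8, PLD6 and KAZN. For the 12 largest rises the medians were 1.64 and 1.36, and the difference was called for SGCB alone. SMIM14 rose by 2.77 in the MED10 line and 2.62 in the MED14 line (difference 0.14 ± 0.49), HEXIM1 by 1.57 and 1.40 (difference 0.17 ± 0.23), and POLR2A by 1.06 and 0.93 (difference 0.13 ± 0.20). Under TMM none of the 24 differences was called.

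Among genes that differed under both scalings, EMG1, a methyltransferase of ribosome assembly, was at -2.05 ± 0.14 in the MED14 line and -0.78 ± 0.12 in the MED10 line, a difference of 1.27 ± 0.18 (edgeR adjusted p = 8.05e-06; TMM 0.0118). GNA15, a G-protein subunit of blood cells, was at -2.09 ± 0.13 and -0.74 ± 0.12, and the splicing factor SRSF3 at -1.79 ± 0.10 and -0.78 ± 0.09. In the other direction POLN, a DNA polymerase, was at 2.23 ± 0.54 in the MED14 line and -0.09 ± 0.43 in the MED10 line, a difference of -2.32 ± 0.70 (edgeR adjusted p = 0.0112; TMM 0.0466).

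The MED31 line, which loses another subunit of the middle module, had fewer calls: 327 falls (2.61%) and 62 rises (0.495%), and 334 (2.67%) and 235 (1.88%) under TMM. On the spike-in scale 86.2% of the falls and 59.7% of the rises were shared with the MED10 line, 11.8 and 10.9% of the calls there. The effects differed for 115 genes, 112 lower in the MED10 line (0.895%) and 3 higher (0.024%), and TMM gave 88 and 25. Of the 12 largest falls 9 were deeper in the MED10 line, among them MYC, at -0.58 ± 0.27 in the MED31 line (difference -2.66 ± 0.45, edgeR adjusted p = 0.000150), and ZFP36L2, at -0.35 ± 0.20. None of the 12 largest rises differed by this test. Choice by size in the MED10 line favours such differences, so these counts are descriptions only.

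POLR2A rose by 1.22 in the MED31 line, a difference of -0.15 ± 0.20 from the MED10 line, and HEXIM1 by 1.30, a difference of 0.27 ± 0.23. MYB and BCL11A also fell in the MED31 line, to a lesser extent (-0.37 ± 0.11 and -0.46 ± 0.12), against -1.85 and -1.61, and both differences were called (edgeR adjusted p = 9.92e-10 and 4.79e-05). The 3 genes that were higher in the MED10 line were EGR1, FILIP1L and SLC2A3. EGR1, an immediate-early transcription factor, fell in the MED31 line (-1.07 ± 0.22, edgeR adjusted p = 0.00187) and was not called in the MED10 line (1.01 ± 0.44, adjusted p = 0.0905); the difference was 2.08 ± 0.49 (edgeR adjusted p = 0.0153). FILIP1L, a cytoskeletal regulator, rose from 0.902, 2.32 and 0.840 CPM to 8.37, 3.18 and 7.21 CPM, and SLC2A3 was at 0.11 ± 0.14 in the MED31 line.

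**Figure D4:**
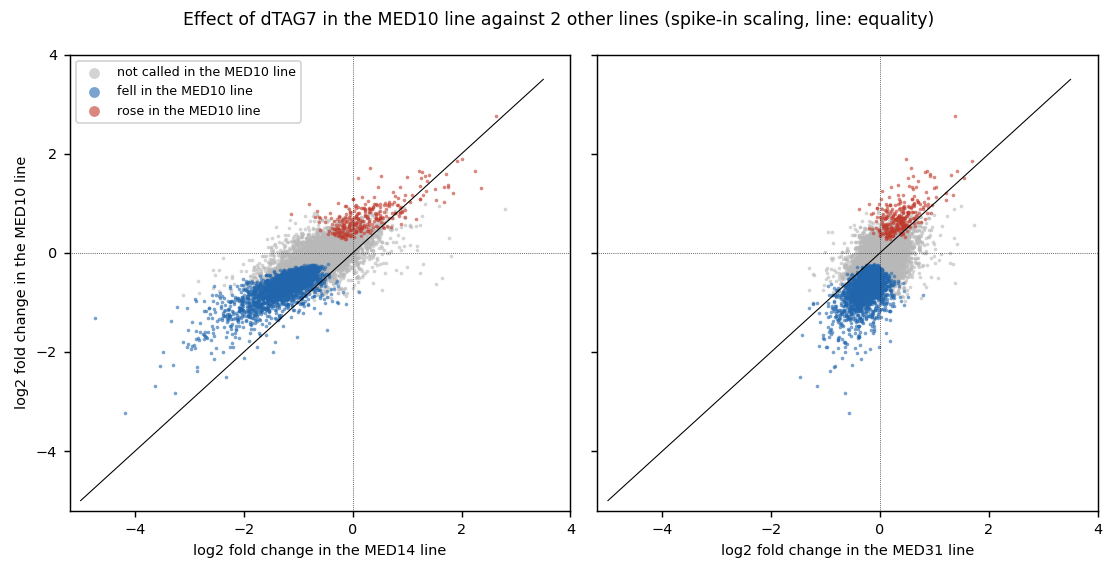
Each point is 1 of 9997 genes with a mean of at least 5 CPM, at its log2 fold change with dTAG7 in the MED14 line (left, x axis) or the MED31 line (right, x axis) and in the MED10 line (y axis), all on the spike-in scale; colours give the call in the MED10 line and the solid line marks equality. Most blue points lie above the line on the left, where the median difference is 0.50, and below it on the right, where it is -0.17.

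**Figure D5:**
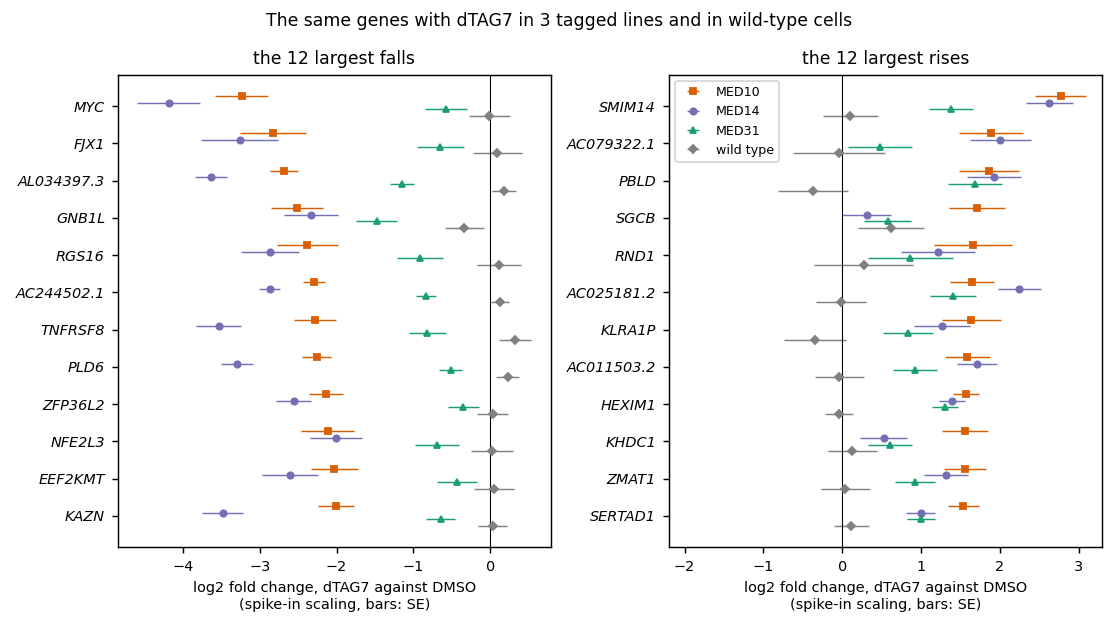
Log2 fold changes with dTAG7 (points, with SE) of the 12 largest falls (left) and 12 largest rises (right) of the MED10 line in the MED10, MED14 and MED31 lines and in wild-type cells, on the spike-in scale. The genes were chosen by their size in the MED10 line. The falls have medians of -2.29, -3.07 and -0.67 in the 3 tagged lines and the rises medians of 1.64, 1.36 and 0.92, while wild-type cells lie between -0.37 and 0.62.

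Counts by list are given side by side for the MED10, MED14 and MED31 lines, in which 19, 63.3 and 2.61% of all genes fell. Ribosome assembly genes fell in 84 of 94 in the MED10 line, 93 in the MED14 line and 24 in the MED31 line, with medians of -0.80, -1.39 and -0.33, and blood transcription factors in 22, 36 and 13 of 37, with medians of -0.70, -1.39 and -0.23. The difference between the MED10 and MED14 lines was called for 66 of the 94 and 24 of the 37, beside 29.9% of all genes, and under TMM for 1 and 3. That between the MED10 and MED31 lines was called for 19 and 6, beside 0.895% of all genes that were lower in the MED10 line, and under TMM for 14 and 7. Mitochondrial ribosomal protein genes fell in 40, 68 and 4 of 74 and cytosolic ones in 7, 65 and 0 of 79, so that most members of both lists fell in the MED14 line, as most genes did there.

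Over the 7 tagged Mediator lines beside MED10, the profile of the MED10 line was most like that of MED14 (Pearson 0.783 over 9997 genes), then MED28 (0.691), MED6 (0.615), MED31 (0.582), MED12 (0.549), MED26 (0.439) and MED1 (0.313). Wild-type cells given dTAG7 had 0.0434. These lines share no libraries with the MED10 line. Of the falls in the MED28 line 91.6% were also falls in the MED10 line, 19.6% of the falls in the MED10 line, and of the falls in the MED6 line 58.3%, which were 56.4% of the falls in the MED10 line. Under TMM the order of the shares of MED10-line falls turned, to 36.4% for the MED28 line and 24.5% for the MED6 line. The shares of each line's own falls kept their order, at 80.3 and 71.5%. Of the 12515 genes tested, 509 fell in the MED28 line and 2309 in the MED6 line, and 579 and 438 under TMM. In the MED10 line 19% of all genes fell, and 10.2% under TMM.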

How the data were processed

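QuantSeq 3' mRNA libraries of KBM7 cells were analysed from the count table that the authors deposited, which holds raw counts per gene. It has 13375 rows: 13331 genes, 37 ERCC and 7 SIRV spike-in rows, and 13297 genes carry a GENCODE 29 name. Tools listed per the submitters' processing notes are bedtools 2.26.0, HTSeq 0.6.0 and STAR 2.5.2b, and the build is hg38. The second table the authors deposited, of loess-normalized signal, served as an alternative only. No gene of the deposited table sums to fewer than 70 counts or is detected in fewer than 20 libraries, so genes silent in most libraries are not seen here. Depth was 439261 to 4337368 endogenous counts over 66 libraries, each with at least 10950 spike-in counts.

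The main test was edgeR 4.0.16 quasi-likelihood on counts over all 66 libraries in 22 groups (44 residual degrees of freedom), with spike-in totals as library sizes, 12515 genes after filterByExpr, and Benjamini-Hochberg adjusted p under 0.05. Per the labels' protocols the same amount of spike-in went into each lysate and the same number of cells was seeded per condition, which this scaling relies on; the median SD of log2 endogenous to spike-in ratios within groups was 0.0581. Genes named are the 12 genes changed most in each direction whose average reaches 5 CPM and whose arms do not overlap, up to 3 members a list and direction with the lowest p, and the 5 lowest p each way in differences between lines; other members named in the text, such as those below the threshold, were chosen after their values were seen. Members and lists were chosen with earlier results of these data known. Replicate letters were not treated as pairs: deviations of same-letter libraries correlated at -0.0126, 0.00466 and -0.0800. Alternatives were TMM or DESeq2 1.42.0 median-of-ratios factors, ERCC or SIRV rows alone, other count filters, a replicate block, the compared groups alone, DESeq2, limma 3.58.1 on the loess table, and leaving out each library. R 4.3.3 and Python 3.11.15 were used, and the fits were tested on simulated data. Promoters are RefSeq windows of GRCh38.p14, matched for 9475 tested genes. Some members of the lists are not reported here.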

Additional observations from a re-analysis of the deposited data

Results flagged for a closer look

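The test of the difference between lines flagged the following results. For 1835 genes the dTAG7 effect was not the same in the MED10 line and in wild-type cells. The lowest p-values among these were those of AC244502.1 (difference -2.43 on the log2 scale), MYB (-1.94), AL034397.3 (-2.87), ANGPT1 (-1.95) and PLD6 (-2.49), lower in the MED10 line, and of HEXIM1 (1.61), POLR2A (1.07), SMIM14 (2.66), ZNF703 (1.31) and FAM111A (0.80), higher in it.

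Between the MED10 and MED14 lines the effect differed for 3749 genes. The lowest p-values were those of POLN (-2.32), FRMD4A (-3.24), SNAI3-AS1 (-1.05), SLC43A2 (-2.64) and SUOX (-1.64), which were lower in the MED10 line, and of SPN (0.92), GNA15 (1.36), SRSF3 (1.01), PRRC2C (0.89) and EMG1 (1.27), which were higher. FRMD4A rested on 0 to 1.80 CPM in the MED10 line, SLC43A2 on 0.966 to 4.64 CPM, and SUOX was already higher in the MED10 line than in wild-type cells with DMSO (log2 1.03).

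Between the MED10 and MED31 lines it differed for 115 genes. The lowest p-values were those of MYB (-1.48), AC244502.1 (-1.46), ANGPT1 (-1.23), PLD6 (-1.74) and CD3EAP (-1.15), lower in the MED10 line, and of EGR1 (2.08), FILIP1L (2.13) and SLC2A3 (0.87), higher in it. EGR1 stood at 1.96 to 4.64 CPM with DMSO and 5.91 to 6.12 CPM with dTAG7 in the MED10 line.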

How the results depend on the processing

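The 339 rises and 2383 falls of the MED10 line became 1076 and 1279 with TMM factors and 1129 and 1216 with median-of-ratios factors. With the compared groups alone 545 genes rose, and with a replicate block in those groups 604 rose and 3670 fell; the replicate block over all libraries gave 333 rises and 2329 falls and moved none of the 3 counts of differences between lines by over 1.5 times. Leaving out a library gave 200 to 266 rises (200 without DMSO replicate C, 215 without dTAG7 replicate B) and 1646 to 2199 falls. The 1835 differences from wild-type cells became 978 (TMM), 974 (median of ratios), 1136 (limma on the loess table, pseudocount 1) and 1236 to 2125 without a library. The 3749 differences from the MED14 line became 48 (TMM), 41 (median of ratios), 2498 (ERCC alone), 5758 (compared groups alone), 5807 (replicate block in those groups) and 2496 to 3719 without a library, lowest without MED10 DMSO replicate C. The 115 differences from the MED31 line became 576 (compared groups alone), 401 (replicate block in those groups), 204 (DESeq2), 35 (limma, pseudocount 1) and 61 to 134 without a library; it was 75 and 63 without MED10 DMSO replicates A and B, 69 and 61 without MED10 dTAG7 replicates A and C, 62 without MED31 DMSO replicate B and 61 without MED31 dTAG7 replicate C. The cause of these shifts was not tested. Of 480 values of named genes of the MED10 comparison over the alternatives, 475 kept their direction and call, and the other 5 were those of MED10. For genes named in differences these were 240 of 240 against wild-type cells, 220 of 237 against the MED14 line and 169 of 191 against the MED31 line, with 0 reversed, and 1191 of 1404 list counts stayed within 1.5 times. Most of the named genes tallied were chosen for large called changes or low p-values in the same libraries, which favours such stability. Over all calls, 1294 of the 2383 falls and 112 of the 339 rises were called in every fit that left out a MED10-line library. At this depth genes under 5 CPM, such as GATA1, rest on few counts.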
